A study of Mus musculus with 4 samples.

Results

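The Esrrb and Sox2 dual knockdown was compared with its control on 8 arrays, 4 per group. Genes were counted as members of the comparison when a probe had a detection score above 0.99 on all 4 dual arrays or on all 4 control arrays, the score being 1 minus the detection p-value. The rule gave 8014 genes, out of 16593 genes with a probe and out of 8248 genes detected on all 4 arrays of at least 1 of the study's 4 groups. It looks at detection and not at the size of a difference. A gene that meets it in 1 group alone is, however, more likely to be higher in that group. Of the members, 7364 were detected on all 8 arrays. In 101 genes just inside the threshold (lowest score of the better detected group between 0.99 and 0.995) the median level was 5.66 on the normalized log2 scale, and in 26 genes just outside it (0.985 to 0.99) 5.69. Both sets were taken from the 8248 genes. The 26 are therefore only genes detected on all 4 arrays of another group of the study, and not all genes just below the threshold.

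The cells were mouse embryonic stem (ES) cells that the labels give the developmental stage E14, grown in what the labels call normal ES cell conditions. Short hairpin RNAs (shRNAs) were introduced by lipofection. They direct the breakdown of a matching messenger RNA. Cells were kept under puromycin for 2 days before total RNA was taken. The control hairpin is directed against GFP, a jellyfish protein, and the other groups received hairpins against Esrrb, against Sox2, or against Esrrb and Sox2 together. The labels say neither how many hairpins were used per transcript nor whether the 4 replicates of a group were separate transfections. The p-values below therefore cover the spread between arrays, part or all of which may be technical.

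RNA was measured on 1-colour Illumina bead arrays. The letters A to D mark the arrays of a group, and they fall in 2 sets: the A and B arrays of the 4 groups detected 11286 to 12054 of 25697 probes, and the C and D arrays 12994 to 13322. ES cell markers were present in both groups, with 8 of 8 detected on all arrays. The summed intensity of the 8 was 55771 to 60971 in the dual arrays, against 77452 to 80294 in the control arrays. It includes the hairpin targets Esrrb (means of 12841 in the control and 3253 in the dual knockdown) and Sox2 (795 and 371). In the dual knockdown 7 of the 8 were lower and 0 higher, the 2 targets among them, whose fall the hairpins aim at. The exception was Dppa5a, a small RNA-binding protein of pluripotent cells, at 48388 ± 1648 (SD, n = 4 arrays) in the control and 47402 ± 2115 in the dual knockdown, which did not pass the test. Of 10 fibroblast markers 3 were detected (Col1a1, Thy1 and Vim), with a summed intensity of 2948 to 3113 in the control and 2503 to 3078 in the dual arrays, and the collagen gene Col3a1, the matrix gene Postn and S100a4 were detected on 0 of 8 arrays. Of the other fibroblast markers, Pdgfrb was detected on 2 control and 3 dual arrays, Lum on 2 and 2, Col1a2 on 1 and 0, and Dcn on 0 of 8. Among 5 neural markers Pax6, Sox1 and Tubb3 were detected on 0 of 8 arrays. Nes and Map2 were detected on all 8 and did not pass the test, at 251 ± 31.7 and 205 ± 34.3 in the control and 223 ± 53.3 and 207 ± 43.2 in the dual knockdown.

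Esrrb belongs to the nuclear receptors and has no known natural ligand. Sox2 is an HMG-box protein that binds DNA beside Oct4. Both sit in the network of transcription factors that keeps mouse ES cells self-renewing, and the network's members bind one another's regulatory regions as well as their own. In the mouse, loss of Oct4 or Sox2 activity in ES cells is known to open the way to trophoblast, the outer lineage of the embryo that builds the placenta, while LIF, FGF, Wnt and BMP signals tune the balance between self-renewal and differentiation.

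A gene was called changed when limma's adjusted p (Benjamini-Hochberg over 8248 genes) was under 0.05, and differences are dual minus GFP on the log2 scale after quantile normalization. An offset of 16 is added before the logarithm, so differences of dim genes are understated. Of 8014 members 3642 were called, 45.4%, with 1815 higher (22.6%) and 1827 lower (22.8%) in the dual knockdown. With median scaling in place of quantile normalization 1835 genes were called, and with no normalization between arrays 3928 (1179 higher and 2749 lower, the median of all genes moving to -0.14). The 4 dual and 4 control arrays did not overlap for 3104 members, 38.7%. These shares are the background against which the gene groups below are read. Most differences were small: 686 called genes were higher and 523 lower by 1.5-fold or more. Past 2-fold these numbers were 177 and 134, and past 4-fold 14 and 6. The median over the members was -0.01 (quartiles -0.24 and 0.24). In bulk RNA, fewer cells of a type and less RNA per cell cannot be told apart, and this holds for every group of genes below.

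**Figure D1:**
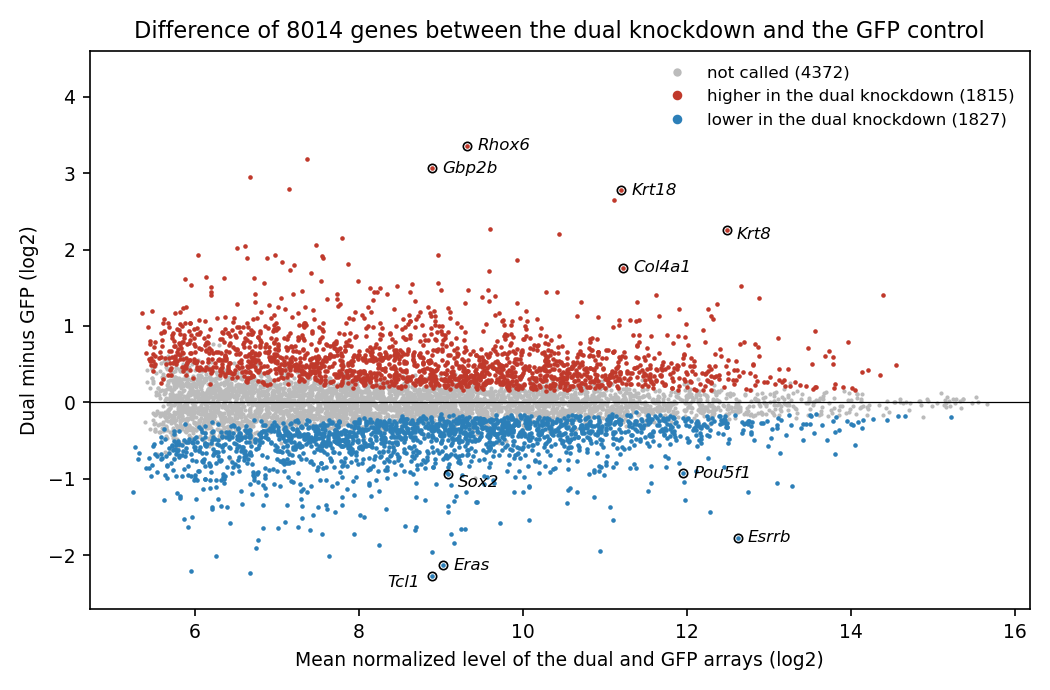
Each point is 1 of 8014 genes, with its mean normalized log2 level over the 4 dual and 4 GFP arrays on the horizontal axis and the log2 difference (dual minus GFP) on the vertical axis. Red points are the 1815 genes called higher, blue points the 1827 called lower and grey points those not called, and differences past 2 occurred in both directions.

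The transcripts aimed at were both lower. Esrrb had deposited intensities of 12535.7, 13404.1, 12236.4 and 13187.6 on GFP arrays A to D, and 3263.5, 3365.5, 3335.0 and 3049.3 on the dual arrays. The 4 dual values lay close together and far below the control values, at 29.3% of the control after normalization (log2 -1.77, SE 0.07, adjusted p = 2.77e-11). Sox2 was at 743.8, 816.5, 869.8 and 751.1 in the control and at 403.0, 369.5, 350.7 and 359.8 in the dual knockdown. The groups did not overlap for this transcript either, but 52.5% of the control level was left (log2 -0.93, SE 0.08, adjusted p = 3.25e-07). Each transcript was also lower than the control with the other hairpin alone. Esrrb had a mean intensity of 4804 with the Sox2 hairpin and 2691 with its own, against 12841 in the control. Sox2 had 495 with the Esrrb hairpin and 513 with its own, against 795. The part of each hairpin in the 2 falls was not tested.

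Pluripotency genes fell with them. Of 12 members of the list of naive state factors (17 genes listed), 11 were lower and 0 higher, with a median of -1.21. Not all of them are factors. The list also holds the adhesion gene Jam2 and the lysosomal enzyme gene Manba, both among the 12 largest falls given below. Like every list here, it was drawn up with earlier results of these data known, so its counts are a description and not a test. Nanog is counted both in this list and among the core factors. Of 14 members of the list of ES cell-restricted genes (19 listed), 13 were lower and 0 higher (median -0.81), and of 13 core factors and partners (18 listed) 9 were lower and 2 higher (median -0.51). Nanog, the homeobox factor that holds cells in the ground state, had intensities of 4731.0, 5294.5, 4853.0 and 4338.2 in the control and 2233.6, 1346.4, 2109.6 and 1969.3 in the dual knockdown. All dual values lay below all control values, with array B the lowest (log2 -1.16, adjusted p = 5.21e-07). Zfp42 (Rex1), a zinc-finger gene read widely as a marker of undifferentiated cells, went from 3128.3, 3801.5, 4931.5 and 4460.6 to 1249.4, 1085.3, 1282.3 and 1319.0 (log2 -1.54, adjusted p = 1.82e-07). Its control arrays were spread more widely than its dual arrays, without overlap.

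Several other regulators of the naive state fell. Klf4 and Klf2, Kruppel-like factors that act in the naive network, differed by -1.27 and -1.37 (adjusted p = 5.94e-09 and 3.50e-09), and Nr5a2, a nuclear receptor that binds upstream of Pou5f1, by -1.49 (adjusted p = 9.71e-09). Pou5f1 itself, which encodes Oct4, had a mean intensity of 5964 ± 286 in the control and 2763 ± 85.5 in the dual knockdown. Among the ES cell-restricted genes Ooep and Khdc3, partners in the maternal complex beneath the egg's surface, fell by 1.43 (adjusted p = 3.60e-10) and 1.35 (adjusted p = 6.39e-07). The primed-state factor Otx2 also fell, from 355.6, 497.9, 512.5 and 488.9 to 155.7, 108.3, 116.2 and 100.9 (log2 -1.71, adjusted p = 2.92e-08). Zfx, an X-linked zinc-finger factor needed for ES cell self-renewal, was 1 of the 2 core-list genes that rose (log2 1.07, SE 0.18, adjusted p = 1.74e-04).

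**Figure D2:**
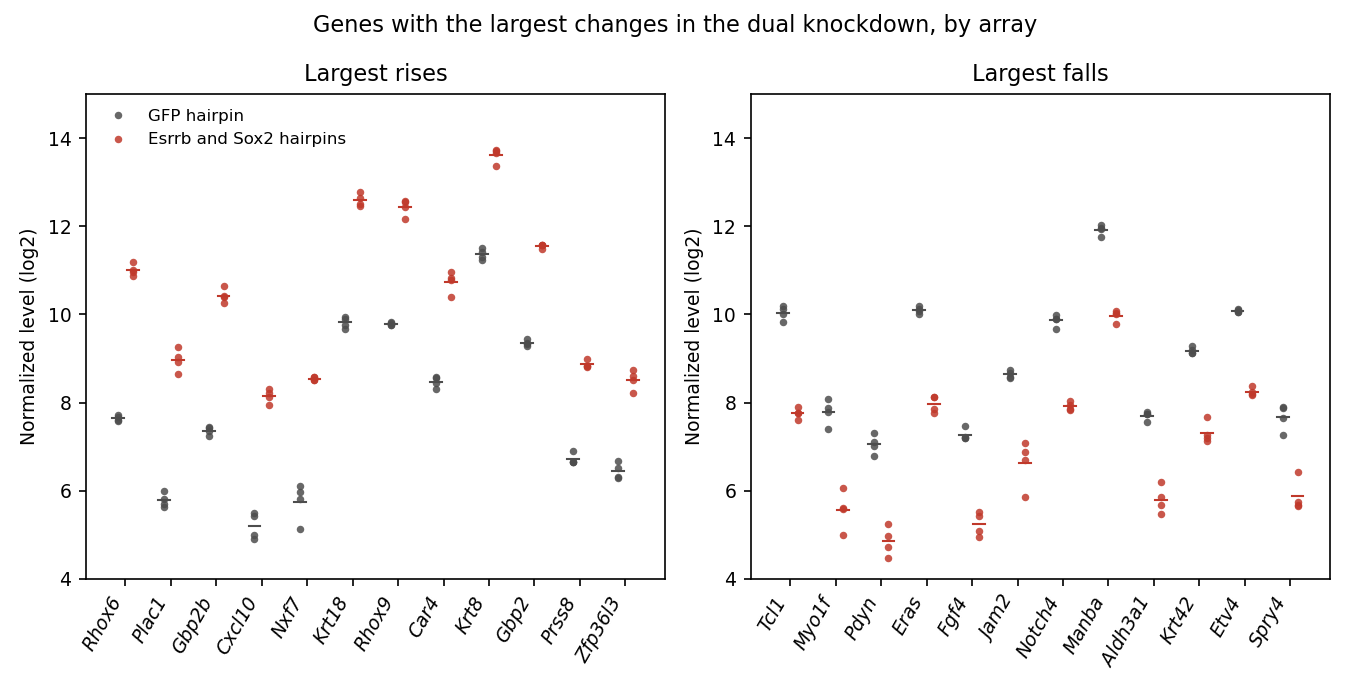
Normalized log2 level on each of the 4 GFP arrays (grey) and 4 dual arrays (red) for the 12 largest rises and 12 largest falls, with a short line at each group mean. Both panels share 1 vertical scale, and in none of the 24 genes do the points of the 2 groups overlap, which the choice of these genes required.

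The largest falls included growth and signalling genes of ES cells. Tcl1, which encodes a coactivator of the kinase Akt, was at 1134.7, 976.5, 1087.1 and 1257.2 in the control and at 212.4, 157.2, 233.8 and 190.7 in the dual knockdown. After normalization the dual arrays held 20.7% of the control level (log2 -2.27, SE 0.10, adjusted p = 1.84e-10). Eras, a Ras protein of ES cells that is active without a stimulus, went from 1187.4, 1179.7, 1084.9 and 1171.5 to 279.5, 191.2, 276.2 and 188.8 (log2 -2.13, adjusted p = 4.00e-09). Its control arrays lay within a narrow band, and the dual arrays formed a higher pair (A and C) and a lower pair (B and D). Pdpk1, the kinase that activates Akt, fell less, by 0.69 (adjusted p = 7.91e-07). Over the 8 members of the list of PI3K-Akt activators (15 listed) 4 were lower and 2 higher, with a median of -0.17.

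FGF signalling genes moved in the same direction in part. Fgf4, the main FGF ligand of ES cells, was at 134.6, 139.7, 135.8 and 173.7 in the control and at 20.2, 15.1, 27.6 and 21.4 in the dual knockdown, where 2 of 4 arrays detected it. The difference of -2.02 (adjusted p = 6.67e-09) is therefore uncertain in size. Etv4, an ETS factor switched on by FGF and ERK, had 1140.7, 1166.2, 1129.2 and 1136.9 in the control and 292.2, 279.5, 298.4 and 256.8 in the dual arrays, both tight groups (log2 -1.84, SE 0.07, adjusted p = 4.28e-11). The feedback inhibitor gene Spry4 fell by 1.80 with a larger error (SE 0.22, adjusted p = 6.52e-06). Of 12 members of the FGF and ERK list (17 listed) 6 were lower and 2 higher, with a median of -0.26.

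The other falls of this size were of varied function. Myo1f, a class I myosin known from leukocytes, fell by 2.23 and was detected on 3 of 4 dual arrays, and Pdyn, the precursor of opioid dynorphin peptides, by 2.20 with detection on 1 of 4. Pdyn read 6.6, -7.0, 18.1 and 9.8 on the dual arrays, at background, so the size of its difference is uncertain. Jam2, a junctional adhesion molecule, was at 404.7, 442.5, 386.2 and 389.1 and dropped to 127.3, 40.4, 108.3 and 83.0 (log2 -2.01, SE 0.22, adjusted p = 2.58e-06). Its dual arrays were spread far more widely than its control arrays, array B being the lowest, without overlap. Notch4, a Notch receptor gene, fell by 1.95, Manba, the lysosomal beta-mannosidase, by 1.95, the aldehyde dehydrogenase gene Aldh3a1, detected on 3 of 4 dual arrays, by 1.91, and the type I keratin gene Krt42 by 1.87, each with an adjusted p of 4.00e-09 or less.

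Sequence upstream of the start was available for 19 of the 26 genes that comprise the 24 largest changes and the targets (RefSeq, build GRCm38.p6). In the 250 bases before the start a Sox-type core, ACAATG on either strand, was found for 3 of the genes with large falls, Eras, Notch4 and Krt42, shown here with motif matches in capitals because Sox2 is 1 of the factors reduced. Coordinates are chrX:7928608-7928857 on the minus strand for Eras, chr17:34564045-34564294 on the plus strand for Notch4, and chr11:100269952-100270201 on the minus strand for Krt42. In Notch4 the capitals also mark a match to the interferon-type pattern GAAANNGAA.
Eras: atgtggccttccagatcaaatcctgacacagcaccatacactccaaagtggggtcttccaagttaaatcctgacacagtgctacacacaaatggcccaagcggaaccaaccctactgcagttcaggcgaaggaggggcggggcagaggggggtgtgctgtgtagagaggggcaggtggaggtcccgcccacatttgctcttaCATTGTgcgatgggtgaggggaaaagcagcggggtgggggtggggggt
Notch4: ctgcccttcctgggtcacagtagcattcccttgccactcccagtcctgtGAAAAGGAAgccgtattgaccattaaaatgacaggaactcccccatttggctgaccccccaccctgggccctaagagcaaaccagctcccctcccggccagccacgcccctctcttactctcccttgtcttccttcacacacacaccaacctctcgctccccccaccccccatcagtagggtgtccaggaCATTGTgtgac
Krt42: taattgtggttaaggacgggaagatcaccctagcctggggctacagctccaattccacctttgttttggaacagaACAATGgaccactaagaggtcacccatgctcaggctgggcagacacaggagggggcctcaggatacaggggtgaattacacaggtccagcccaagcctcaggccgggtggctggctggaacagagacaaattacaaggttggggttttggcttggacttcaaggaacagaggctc
Among genes with a single annotated start, ACAATG was present upstream of 11.8% of 85 genes called lower by 2-fold or more, 3.03% of 99 genes called higher by 2-fold or more, 5.43% of 5115 members and 11.2% of 22862 promoters of the table. The Esrrb core AAGGTCA was found in 2.35%, 3.03%, 2.64% and 4.05% of the same sets, and the octamer ATGCAAAT in 3.53%, 1.01%, 1.43% and 1.68%. These are counts of letters in a short window and say nothing of binding.

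LIF and Nodal genes did not move as blocks. Of 13 members of the list for LIF and STAT3 (15 listed) 6 were lower and 2 higher, with a median of -0.14. Socs2, a feedback inhibitor induced by STAT signals, fell by 1.30 (adjusted p = 2.33e-08), whereas Junb, an AP-1 subunit, rose by 1.17 (adjusted p = 8.96e-08). The Nodal list had 4 higher and 4 lower of 12 members (17 listed). Gdf3, a TGF-beta family ligand of ES cells, fell by 1.09 (adjusted p = 1.44e-07), the Nodal co-receptor gene Tdgf1 by 0.76 (adjusted p = 0.00290), and the proprotein convertase gene Furin rose by 0.67 (adjusted p = 2.91e-07).

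The largest rises of single genes were those of Rhox6 and Plac1, both genes of the placenta. Of 18 members of the placental list (25 listed), which holds both genes, 16 were higher and 1 lower, with a median of 1.03 and quartiles of 0.41 and 1.58. Rhox6, an X-linked homeobox gene of the placenta and germ line, had intensities of 180.7, 205.6, 210.3 and 191.6 in the control and 2088.5, 1792.2, 1892.8 and 2126.4 in the dual knockdown. It was the member with the largest change, 10.2-fold on the normalized scale (log2 3.36, SE 0.10, adjusted p = 9.07e-12), with the 4 arrays of each group close together. Its relative Rhox9 was at 891.6, 956.0, 957.0 and 940.4, and at 6010.6, 4140.9, 6058.3 and 4961.9 in the dual arrays (log2 2.65, adjusted p = 1.88e-11). Array B was the lowest dual array for both genes and still far above the control. Plac1, an X-linked gene expressed mainly in trophoblast, went from 40.9, 42.0, 48.9 and 40.7 (3 of 4 arrays detected) to 524.5, 529.2, 401.4 and 440.6 (log2 3.18, SE 0.14, adjusted p = 2.59e-10).

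Simple-epithelial keratins rose with the placental genes. Krt8 and Krt18 form the filament pair of trophectoderm, the first epithelium of the embryo. Krt18 was at 996.9, 1015.6, 867.2 and 945.8 in the control and at 6301.6, 5236.3, 7040.4 and 5092.9 in the dual knockdown (log2 2.77, SE 0.09, adjusted p = 9.07e-12). Krt8 went from 2527.2, 2745.1, 2872.9 and 3235.5 to 12901.3, 9353.3, 13212.4 and 11737.2 (log2 2.25, SE 0.10, adjusted p = 1.67e-10). The dual arrays of both genes varied in the same way, A and C above B and D for Krt18 and B lowest for Krt8, and none approached the control. Krt7, a further simple-epithelial keratin, rose by 1.93 (adjusted p = 1.48e-09). The keratin list had 6 higher and 1 lower of 8 members, the lower one being Krt42.

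Transcription factors of trophoblast changed unevenly. Gata3, a zinc-finger factor that drives trophoblast fate, was at 66.6, 60.7, 56.1 and 51.8 in the control and at 225.9, 207.1, 257.8 and 239.4 in the dual knockdown (log2 1.83, SE 0.07, adjusted p = 1.88e-11), and Gata2 rose by 1.33 (adjusted p = 4.52e-07). Msx2, a homeobox factor detected on 3 of 4 control arrays, rose by 1.63 (adjusted p = 1.21e-06). Cdx2, the factor that sets up the trophectoderm, had a mean intensity of 300 ± 62.3 in the control and 335 ± 47.7 in the dual knockdown and did not pass the test, while Eomes and Elf5 were each detected on at most 2 of 4 arrays of either group. Over the 15 members of the trophectoderm factor list (19 listed) 9 were higher and 1 lower, with a median of 0.47. The summed intensity of the 7 trophoblast markers, undetected ones included, was 4150 to 4819 in the control and 16168 to 21840 in the dual arrays. The keratins Krt8 and Krt18 given above made up most of it. Their means were 2845 and 956 in the control and 11801 and 5918 in the dual knockdown. Of the 5 detected markers 4 were higher, Gata3 and the keratins Krt7, Krt8 and Krt18. The part that cells of another type play in these values was not tested.

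Further rises among the 12 largest belonged to genes of epithelia and of RNA handling. Car4, a membrane-anchored carbonic anhydrase, was at 371.1, 393.6, 319.3 and 358.8 and at 1815.2, 1191.5, 2005.6 and 1604.3 in the dual knockdown (log2 2.26, adjusted p = 3.33e-09). Prss8, the epithelial serine protease prostasin, rose by 2.15 (SE 0.07, adjusted p = 9.07e-12). Zfp36l3, a rodent gene of placenta for an RNA-binding zinc-finger protein, rose by 2.06 and Nxf7, of the nuclear RNA export factor family, by 2.79, with detection on 3 of 4 control arrays for the latter. Of the 12 largest rises, Rhox6, Rhox9, Plac1, Nxf7 and Zfp36l3 lie on the X chromosome (assembly GRCm38.p6). Among 256 members on X, 28.9% were higher and 18.0% lower, with a median of 0.08.

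Interferon-response genes rose as well. Of 20 members of the interferon and guanylate-binding list (34 listed) 16 were higher and 2 lower, with a median of 1.05 and quartiles of 0.45 and 1.90, and 15 of the 20 were detected on all 8 arrays. The 2 lower ones, named here after their values were seen, were Ifitm1 (log2 -0.68) and Ifitm2 (-0.42), of the interferon-induced transmembrane family. Gbp2b and Gbp2 encode guanylate-binding proteins, large GTPases induced by interferon. Gbp2b was at 137.3, 167.6, 168.7 and 159.5 in the control and at 1616.2, 1078.2, 1349.4 and 1238.3 in the dual knockdown (log2 3.06, SE 0.10, adjusted p = 9.07e-12). Gbp2 went from 653.6, 738.2, 657.8 and 691.9 to 3099.6, 2526.5, 3073.3 and 2793.8 (log2 2.21, SE 0.08, adjusted p = 9.56e-12). For both, array A was the highest dual array and array B the lowest, and the groups were far apart. Cxcl10, an interferon-induced chemokine gene, rose from 17.3, 19.8, 27.1 and 25.2, where 2 of 4 arrays detected it, to 244.0, 266.6, 297.9 and 246.3 (log2 2.94, SE 0.15, adjusted p = 1.08e-09).

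The promoters of these 3 genes are shown because each holds the letters GAAANNGAA, a pattern bound by interferon regulatory factors, on 1 strand within 250 bases of its start, in capitals below. Positions are chr3:142594597-142594846 on the plus strand for Gbp2b, chr3:142620413-142620662 on the plus strand for Gbp2, and chr5:92348890-92349139 on the minus strand for Cxcl10. The match begins 136, 58 and 213 bases before the start, in that order. Plac1, also among the 12 largest rises, holds the pattern 200 bases before 1 of its 2 annotated starts and is not printed.
Gbp2b: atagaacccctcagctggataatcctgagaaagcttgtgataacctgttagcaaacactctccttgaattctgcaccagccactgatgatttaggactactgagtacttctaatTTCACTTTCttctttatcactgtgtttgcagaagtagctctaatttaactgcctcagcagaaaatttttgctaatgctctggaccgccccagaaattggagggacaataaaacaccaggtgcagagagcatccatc
Gbp2: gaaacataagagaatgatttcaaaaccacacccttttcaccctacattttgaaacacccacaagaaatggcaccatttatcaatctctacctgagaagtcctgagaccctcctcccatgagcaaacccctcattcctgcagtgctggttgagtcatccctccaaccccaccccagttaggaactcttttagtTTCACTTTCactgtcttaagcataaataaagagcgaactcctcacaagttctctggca
Cxcl10: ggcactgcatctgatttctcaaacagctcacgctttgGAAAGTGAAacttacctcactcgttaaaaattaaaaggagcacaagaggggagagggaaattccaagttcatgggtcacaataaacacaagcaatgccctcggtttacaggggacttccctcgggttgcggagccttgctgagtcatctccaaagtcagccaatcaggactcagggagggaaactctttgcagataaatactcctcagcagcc
The pattern was present upstream of 12.1% of 99 genes called higher by 2-fold or more, 4.71% of 85 called lower by 2-fold or more, 5.83% of 5115 members and 7.16% of all 22862 promoters. The STAT pattern TTCCNGGAA was present in 2.02% of the first set and in 0.958% of members.

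Antigen presentation and inflammatory genes were higher in part. Of 14 members of the MHC class I list (21 listed) 8 were higher and 1 lower, with a median of 0.35. Tap2, a subunit of the peptide transporter, rose by 1.17 (adjusted p = 1.35e-07), the peptide-loading chaperone gene Tapbp, detected on 3 of 4 control arrays, by 1.07 (adjusted p = 4.13e-05), and H2-T10, a nonclassical class I gene detected on 2 of 4 control arrays, by 1.51 (adjusted p = 6.57e-06). B2m, the light chain of class I molecules, rose by 0.59 (adjusted p = 0.00119). In the list of NF-kB and inflammation 8 of 12 were higher and 1 lower (26 listed). Myd88, the adaptor of Toll-like receptors, rose by 1.14 (SE 0.06, adjusted p = 2.22e-09) and the chemokine gene Cxcl1 by 0.85, whereas the adhesion molecule gene Icam1 fell by 0.89 (adjusted p = 8.52e-05). Eif2ak2, the RNA-activated kinase PKR and itself an interferon target, rose by 0.90 (adjusted p = 3.97e-05). The labels do not state the hairpin dose of each group.

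Genes of epithelial structure, matrix and cytoskeleton rose. The list of actin genes and SRF-YAP targets had 19 of 23 members higher and 2 lower (32 listed), with a median of 0.59. Acta1, an alpha-actin, was at 501.1, 564.5, 482.3 and 573.5 in the control and at 1888.6, 1819.7, 1734.6 and 1659.2 in the dual knockdown (log2 1.86, SE 0.08, adjusted p = 2.56e-10). Tropomyosin 1 (Tpm1) rose by 1.37 and the angiomotin-family gene Amotl2, a target of YAP, by 1.35 (adjusted p = 7.19e-09 and 1.84e-08). Basement membrane genes had 13 of 16 higher and 1 lower (19 listed, median 0.58). Col4a1 and Col4a2, the 2 chains of the main collagen IV molecule, rose by 1.76 and 1.44 (adjusted p = 1.03e-09 and 3.35e-09), and Sparc, a collagen-binding matrix protein, by 0.88 (adjusted p = 3.26e-07).

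Junction and membrane genes moved less. Of 18 members of the cell junction list (29 listed) 9 were higher and 0 lower, with a median of 0.38. The claudins Cldn4, Cldn3 and Cldn6, which seal tight junctions, rose by 1.22, 1.22 and 1.12 (adjusted p at most 1.32e-05). Annexins and S100 proteins, which bind calcium, had 9 of 14 higher and 1 lower (20 listed, median 0.55). Anxa3 went from 3483.4, 3649.4, 3605.7 and 3933.5 to 7166.2, 6914.8, 7271.6 and 6636.4, a narrow and separate range (log2 1.14, SE 0.06, adjusted p = 1.15e-09), and S100a11 rose by 0.93. Of 21 integrins and tetraspanins 9 were higher and 3 lower (31 listed). The tetraspanin gene Cd151 rose by 0.87 (adjusted p = 6.18e-08), whereas Itgb7, a beta integrin of lymphocytes, fell by 1.63 (adjusted p = 1.91e-09) and Cd37, a tetraspanin of leukocytes detected on 1 of 4 dual arrays, by 1.63 (adjusted p = 2.21e-06).

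Wnt and BMP genes were higher on balance. Of 15 Wnt pathway members (25 listed) 9 were higher and 1 lower, with a median of 0.57, and of 12 BMP pathway members (19 listed) 6 were higher and 1 lower, with a median of 0.38. Fzd2, a Wnt receptor gene, was at 81.1, 82.6, 99.5 and 80.2 in the control and at 401.4, 368.9, 340.2 and 272.4 in the dual knockdown (log2 1.91, SE 0.12, adjusted p = 7.40e-09), without overlap and with array D the lowest of the dual arrays. Sp5, a zinc-finger factor induced by Wnt, rose by 1.44 (adjusted p = 5.88e-06), and the ligand gene Wnt8a by 1.25 (SE 0.22, adjusted p = 2.96e-04). Wnt8a read 312.3 and 303.8 on dual arrays A and B, and 154.9 and 189.7 on C and D, all above the control values of 84.5 to 99.4. The BMP target Id3 rose by 1.10 and the procollagen protease gene Bmp1 by 0.97 (adjusted p = 3.94e-07 and 1.91e-09).

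Lineage genes other than trophoblast gave a mixed picture. Of 11 extraembryonic endoderm members (23 listed) 6 were higher and 1 lower, with a median of 0.40. The adaptor gene Dab2 rose by 1.13 (adjusted p = 6.25e-06) and Podxl, a sialomucin, by 1.04 (adjusted p = 9.06e-07), while Gata4 was detected on 1 of 4 dual arrays and Foxa2 on none of the 8. The summed intensity of 7 markers of this lineage was 4371 to 4873 in the control and 8797 to 10390 in the dual arrays. Most of this sum came from the matrix genes Sparc, at means of 2744 and 4496, and Col4a1, at 1380 and 4203. Gata6 was called higher, at 142 ± 12.4 and 180 ± 27.9, and Sox17 was not called, at 42.75 ± 16.1 and 32.75 ± 9.96. The part of this lineage in the result was not tested. The 6 mesendoderm members had 1 higher and 0 lower, Hoxb1, an anterior Hox gene detected on 3 of 4 control arrays (log2 1.45, SE 0.31, adjusted p = 0.00140). Of 9 neuroectoderm and primed epiblast members 2 were higher and 3 lower. Otx1, a homeobox factor of the forebrain, rose by 1.04 (adjusted p = 8.84e-06), while Crabp1, a retinoic acid-binding protein, fell by 1.21 (adjusted p = 2.40e-07). Genes of the totipotent-like state of early cleavage embryos had 5 of 9 higher and 1 lower. Tdpoz1, detected on 2 of 4 control arrays, and Tdpoz4 rose by 2.04 and 1.42 and Tcstv3 by 0.79 (adjusted p at most 5.10e-06).

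Imprinted and homeobox genes were higher more often than lower. Of 15 imprinted members (28 listed) 10 were higher and 2 lower, with a median of 0.62. Igf2, the paternally expressed growth factor, had intensities of 13496.3, 14574.5, 15473.0 and 13463.8 in the control and 34806.4, 33059.5, 32731.7 and 31536.6 in the dual knockdown (log2 1.41, SE 0.08, adjusted p = 1.89e-09). Cdkn1c, the maternally expressed inhibitor of cyclin-dependent kinases, was at 4191.5, 3975.4, 4218.3 and 4214.8 and at 10499.7, 10722.5, 9956.5 and 10141.6 (log2 1.52, SE 0.07, adjusted p = 1.77e-10). Neither gene's groups overlapped, and the dual arrays of both were alike. Peg10, a retroelement-derived gene of placenta detected on 3 of 4 control arrays, rose by 1.56 (adjusted p = 1.27e-05). In the wider families, 10 of 22 Sox and homeobox members were higher and 4 lower, 9 of 16 forkhead members were higher and 3 lower, and 2 of 9 Kruppel-like factors were higher and 3 lower. Foxe1, detected on 2 of 4 control arrays, rose by 1.03 and Foxq1 by 0.69, Foxn4 fell by 0.89 (adjusted p at most 3.06e-04), and Klf6 rose by 1.32 (adjusted p = 4.00e-09).

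**Figure D3:**
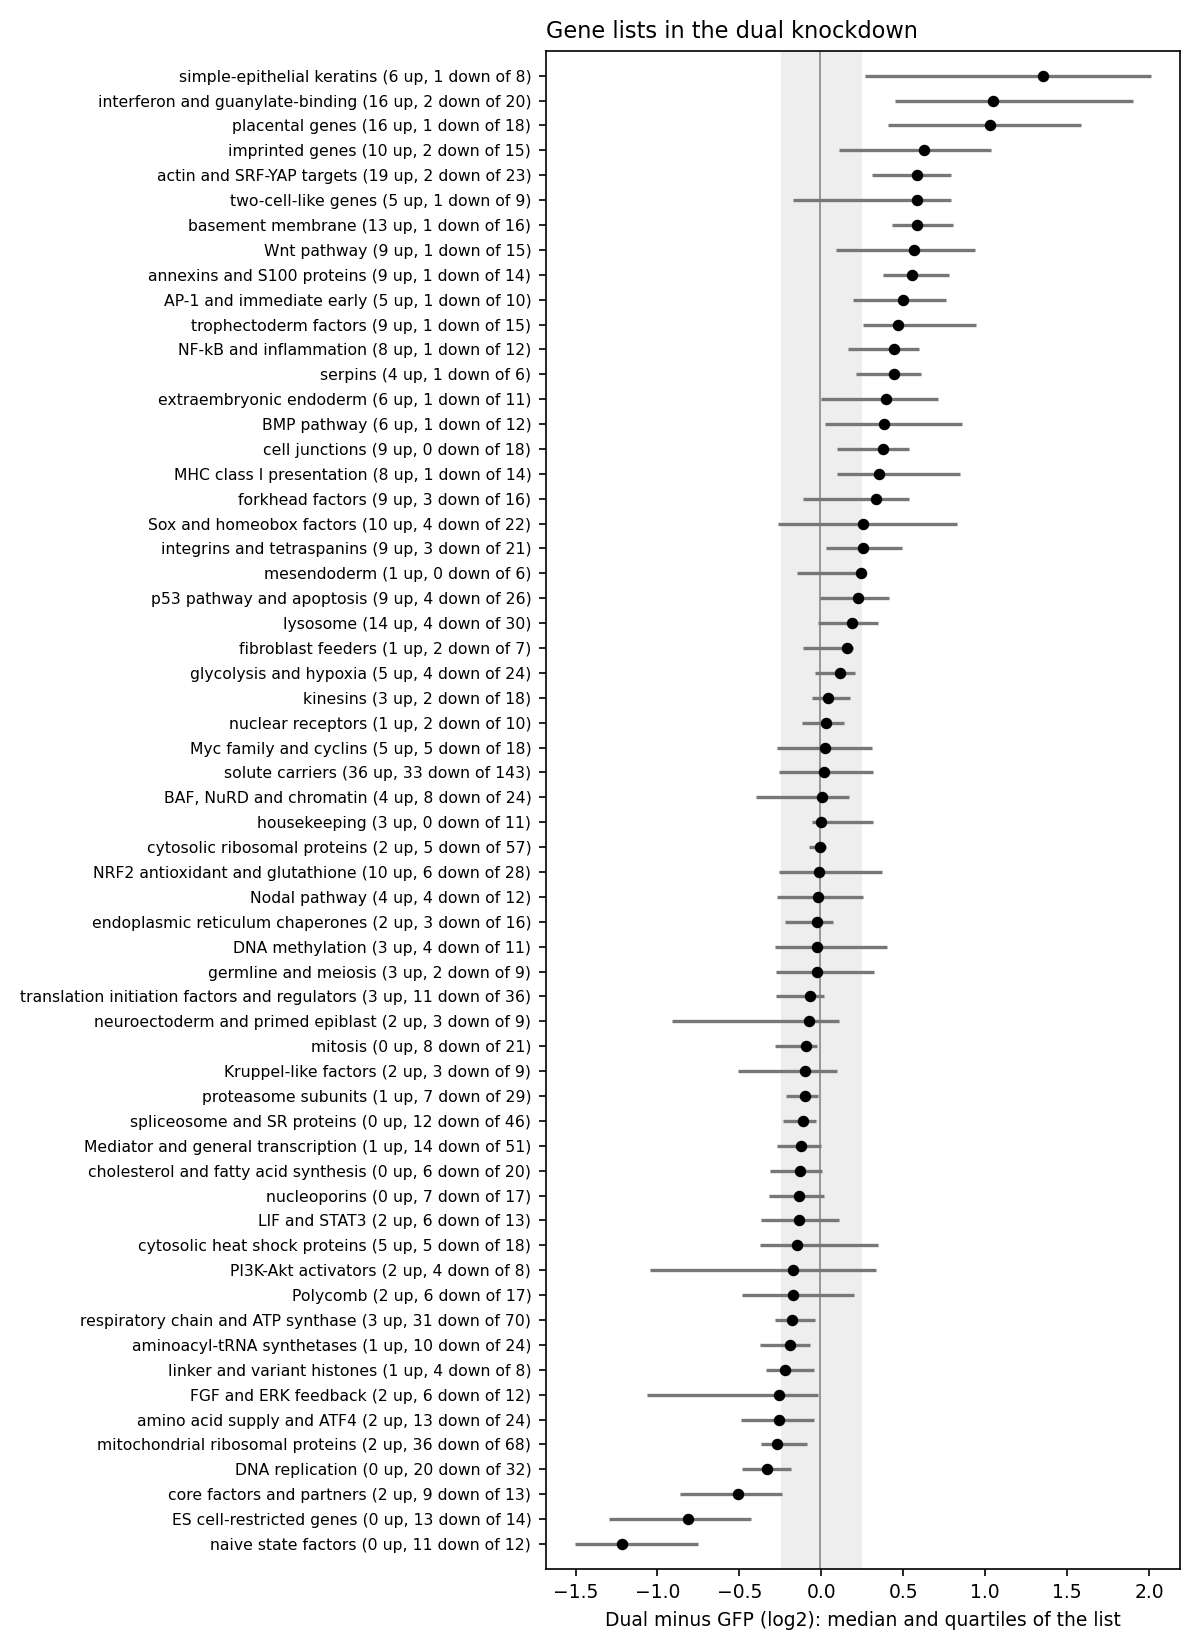
Median (point) and quartiles (line) of the log2 difference, dual minus GFP, for each gene list described in the text, with the numbers of members called higher (up) and lower (down). The grey band spans the quartiles of all 8014 members, -0.24 to 0.24, and the naive state, ES cell-restricted and core factor lists lie lowest while the keratin, interferon and placental lists lie highest.

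Genes of DNA replication fell by small amounts. Of 32 members (41 listed) 20 were lower and 0 higher, with a median of -0.33. Rrm2, a subunit of ribonucleotide reductase, fell by 0.79 and Pold2, a subunit of DNA polymerase delta, by 0.70 (adjusted p = 2.66e-06 and 4.81e-06). Of 21 mitosis members 8 were lower and 0 higher, with a median of -0.09, among them Espl1 (separase, log2 -0.39, adjusted p = 3.67e-04) and Mad2l1 of the spindle checkpoint (-0.37, adjusted p = 0.00585). Myc family genes, cyclins and their inhibitors had 5 higher and 5 lower of 18. Besides Cdkn1c, the inhibitor gene Cdkn1a (p21) rose by 0.69 (adjusted p = 6.23e-06), and the pocket-protein gene Rbl1, detected on 3 of 4 dual arrays, fell by 0.80 (adjusted p = 0.00585) with overlapping arrays. In the list of p53 pathway and apoptosis genes 9 of 26 were higher and 4 lower. Bcl2l1, which protects from apoptosis, rose by 0.98, the p53 target Phlda3 by 0.82 and the death receptor gene Fas by 0.77 (adjusted p at most 3.04e-05).

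About as many nuclear genes for mitochondrial proteins were called lower as were not called, whereas cytosolic ribosomal protein genes were mostly not called. Of 68 mitochondrial ribosomal protein genes 36 were lower and 2 higher, with a median of -0.27, and of 70 genes of the respiratory chain and ATP synthase 31 were lower and 3 higher (median -0.18). Mrps28 fell by 0.60 and Mrps15 by 0.56 (adjusted p = 2.11e-04 and 3.54e-04), the cytochrome oxidase subunit gene Cox7a1 by 0.77 and the complex I subunit gene Ndufb7 by 0.67 (adjusted p = 1.50e-05 and 8.71e-06). Of 57 cytosolic ribosomal protein genes, 2 were higher and 5 lower, with a median of -0.01. The largest change in that list was in Rpl3l, the muscle-type relative of Rpl3, at 347.7, 310.8, 316.7 and 280.0 in the control and 145.1, 145.9, 132.6 and 140.7 in the dual knockdown (log2 -0.97, adjusted p = 1.37e-06).

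Other lists of basic machinery had small median differences. Aminoacyl-tRNA synthetases had 10 of 24 lower and 1 higher (median -0.19), with Vars2, the mitochondrial valine enzyme, at -0.42 and Aars, the alanine enzyme, at -0.42 (adjusted p = 1.10e-04 and 9.42e-04). Translation initiation factors and regulators had 11 of 36 lower and 3 higher, with Eif2s2, the beta subunit of eIF2, at -0.84 (adjusted p = 9.16e-06) and the repressor gene Eif4ebp1 at -0.50. The spliceosome list had 12 of 46 lower and 0 higher, Mediator and general transcription factors 14 of 51 lower and 1 higher, nucleoporins 7 of 17 lower and 0 higher, and proteasome subunits 7 of 29 lower and 1 higher, with medians between -0.13 and -0.10. Polr2i, a subunit of RNA polymerase II, fell by 0.57 (adjusted p = 1.88e-05) and the nucleoporin gene Nup88 by 0.45 (adjusted p = 2.30e-04). Against the 22.8% of all members called lower, the shares called lower in the spliceosome, Mediator and proteasome lists were near the background. Their shares called higher, 0 of 46, 1 of 51 and 1 of 29, were well under the 22.6% of all members. Of 11 housekeeping genes 3 were higher and 0 lower, with a median of -0.00, among them beta-actin (Actb, log2 0.40, adjusted p = 3.26e-04).

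Transcripts of amino acid supply genes were lower on balance, and those of lysosome genes higher on balance. In the list of amino acid supply and ATF4 targets 13 of 24 members were lower and 2 higher (median -0.26). Slc7a3, a transporter of cationic amino acids, fell from 1640.4, 2001.3, 2233.8 and 2057.6 to 602.4, 561.7, 639.8 and 589.2 (log2 -1.54, SE 0.09, adjusted p = 4.04e-09), and Mthfd2, a mitochondrial enzyme of folate metabolism, by 1.22 (adjusted p = 1.50e-08). The control arrays of Slc7a3 spread more widely than its dual arrays, without overlap. Ddit4, an inhibitor of mTORC1 signalling, rose by 0.77 (adjusted p = 8.97e-07). Of 30 lysosome members 14 were higher and 4 lower (median 0.19), with the autophagy adaptor gene Sqstm1 at 0.75 and the sphingomyelinase gene Smpd1 at 0.67 (adjusted p = 2.64e-05 and 8.58e-06), against the fall of Manba given above. Cholesterol and fatty acid synthesis had 6 of 20 lower and 0 higher, led by the fatty acid elongase gene Elovl6 (log2 -1.05, adjusted p = 8.88e-05).

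Glycolysis and hypoxia genes had 5 of 24 higher and 4 lower. Ndrg1 and Egln1, both known targets of hypoxia-inducible factor, rose by 0.90 and 0.86, and the pyruvate dehydrogenase kinase gene Pdk1, another such target, fell by 0.89 (adjusted p at most 1.09e-05). NRF2 and glutathione genes had 10 of 28 higher and 6 lower, with Gsta4, a glutathione transferase, at -0.94 and the mitochondrial superoxide dismutase gene Sod2 at -0.83 (adjusted p = 3.27e-08 and 9.06e-07). Cytosolic heat shock genes were split at 5 higher and 5 lower of 18, with Hspa1a at 0.82 and Hspb8 at 0.77, and endoplasmic reticulum chaperones had 2 higher and 3 lower of 16, with Creld2 at -0.68 and the disulfide isomerase gene P4hb at 0.50 (adjusted p at most 7.09e-06 for the 4 genes). Among 143 solute carriers 36 were higher and 33 lower, shares near the 22.6% and 22.8% of all members. Slc28a1, a nucleoside transporter gene, fell by 1.36 and Slc38a4, an imprinted amino acid transporter gene, rose by 1.24 (adjusted p = 3.31e-07 and 2.16e-04).

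Chromatin regulators were called in both directions. In the Polycomb list and the BAF and NuRD list, the share called in either direction was near the 45.4% of all members. Polycomb genes had 6 of 17 lower and 2 higher, with 9 not called. Phc1, a subunit of Polycomb complex 1, fell from 6552.9, 6335.5, 6147.1 and 7146.5 to 3516.8, 2316.4, 3511.4 and 3100.5 (log2 -0.89, adjusted p = 1.44e-06), with array B well below the other dual arrays. Rbbp7, an X-linked histone-binding subunit shared by several complexes, went from 3357.7, 3852.8, 3512.6 and 3959.3 to 7724.5, 7958.0, 7473.7 and 7923.4 (log2 1.29, SE 0.08, adjusted p = 6.86e-09). BAF, NuRD and related genes had 8 of 24 lower and 4 higher, with the ATPase gene Smarca2 at 0.86 and the deacetylase gene Hdac2 at -0.55 (adjusted p = 7.38e-06 and 6.04e-05), and the median of that list, 0.01, changed sign with the scaling. DNA methylation genes had 3 higher and 4 lower of 11. Of 8 linker and variant histones 4 were lower and 1 higher, Macroh2a1 at -0.58 and H1f2 at 0.62 (adjusted p = 2.55e-05 and 6.17e-06).

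Smaller families completed the survey. AP-1 and immediate early genes had 5 of 10 higher and 1 lower, with Jun at 0.81 (adjusted p = 7.67e-04). Of 10 nuclear receptors 1 was higher and 2 lower, with the retinoic acid receptor gene Rarg at -1.24 (adjusted p = 2.24e-08) beside Nr5a2. The 18 kinesins had 3 higher (Kif1a, Kif5c and Kif1b, at 0.70, 0.66 and 0.57) and 2 lower, and the 6 serpins had 4 higher and 1 lower, with Serpinh1, a collagen chaperone, at 0.81 and Serpinb6c at -0.76. Of 7 members of the fibroblast list 1 was higher, Col6a1 (log2 1.24, adjusted p = 6.00e-09), and 2 were lower, among them Thy1 (-0.42, adjusted p = 8.98e-04). The germline list had 3 higher and 2 lower of 9, with Taf7l, a germ cell relative of a general transcription factor, at 0.93 (adjusted p = 4.88e-05).

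A few genes were detected in 1 group alone. Of the 6 members detected on all 4 dual arrays and on 0 control arrays, Hand1, a bHLH factor of trophoblast giant cells and heart, was at -16.7, 5.5, 14.8 and 9.4 in the control and at 47.2, 36.9, 49.7 and 48.4 in the dual knockdown. It was at least 1.43-fold higher (adjusted p = 5.93e-05), the bound being taken against the lowest detected signal of each control array. Olfml3, a secreted olfactomedin-like protein, was at least 1.41-fold higher and the monocarboxylate transporter family gene Slc16a4 at least 1.32-fold. In the other direction 6 members were detected on all 4 control arrays and on 0 dual arrays. Tigar, a fructose bisphosphatase that restrains glycolysis, was at least 1.40-fold lower, the tissue kallikrein gene Klk1 and the lectin gene Zg16 each at least 1.34-fold, Riiad1 at least 1.38-fold, the corepressor gene Runx1t1 at least 1.21-fold and the actin-binding protein gene Avil at least 1.11-fold (adjusted p at most 0.00505). The direction in these 12 genes follows from how they were chosen.

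The dual knockdown was tested directly against each single knockdown, which asks what the added hairpin changed. Against the Esrrb hairpin alone 3277 of 8014 members were called, 40.9%, 1692 higher and 1585 lower in the dual knockdown, of which 890 differed by 1.5-fold or more and 171 reached 2-fold. With median scaling the count was 1278. The genes that stood highest among those named were Rhox6 (log2 2.76, adjusted p = 1.5e-10), Plac1 (2.68), Cxcl10 (2.55), Krt18 (2.35) and Nxf7 (2.33). The genes that stood lowest were Pdzk1, a scaffold of membrane transporters (log2 -2.28), Trh, the thyrotropin-releasing hormone precursor (-1.85), Otx2 (-1.64), the ubiquitin ligase gene Trim2 (-1.58) and Accsl, detected on 2 of 4 dual arrays (-1.57), each with an adjusted p of 1.7e-06 or less. Pdzk1 was at 142.4, 133.9, 152.3 and 151.4 with the GFP hairpin and at 93.2, 72.2, 85.7 and 98.1 in the dual knockdown, so its dual level was below the control too.

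Against the Sox2 hairpin alone 519 members were called, 6.48%, 264 higher and 255 lower, with 110 past 1.5-fold and 17 past 2-fold. The 2 direct comparisons share the dual arrays. That fewer genes passed here does not show that the dual and the Sox2 knockdown acted alike. Without Sox2 array B the count was 324, and with median scaling 42 (40.5% of them higher, against 50.9%).

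Several genes stood well apart between the dual and the Sox2 knockdown. Khdc3 differed by -1.95 (adjusted p = 9.9e-07), Crxos, a homeobox gene of ES cells, by -1.47, Bex6 by -1.32, the beta-defensin gene Defb42, detected on 2 of 4 dual arrays, by -1.17 and Adgre5 (CD97), an adhesion receptor, by -1.06 (adjusted p at most 1.3e-04). Adgre5 was at 1264.3, 1113.3, 1043.5 and 1126.1 in the GFP control and at 329.3, 297.0, 369.4 and 291.7 in the dual knockdown, also below both single knockdowns (log2 -0.47 from Esrrb, adjusted p = 2.1e-04). Higher in the dual than in the Sox2 knockdown were Hoxb1 and Wnt8a (both 1.37), Fxyd3, a regulator of the sodium pump (1.09), Mup6, of the major urinary protein family (1.03), and Sp5 (1.03), with adjusted p at most 0.015. Fxyd3 was detected on 2 of 4 GFP arrays, at -5.2, 3.6, 26.8 and 32.0, and read 97.1, 76.3, 88.5 and 80.5 in the dual knockdown, higher than in each single knockdown (log2 1.42 from Esrrb, adjusted p = 1.1e-04). Mup6 went the other way against Esrrb (-1.40) and lay below the GFP control (-0.65, adjusted p = 1.79e-04).

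**Figure D4:**
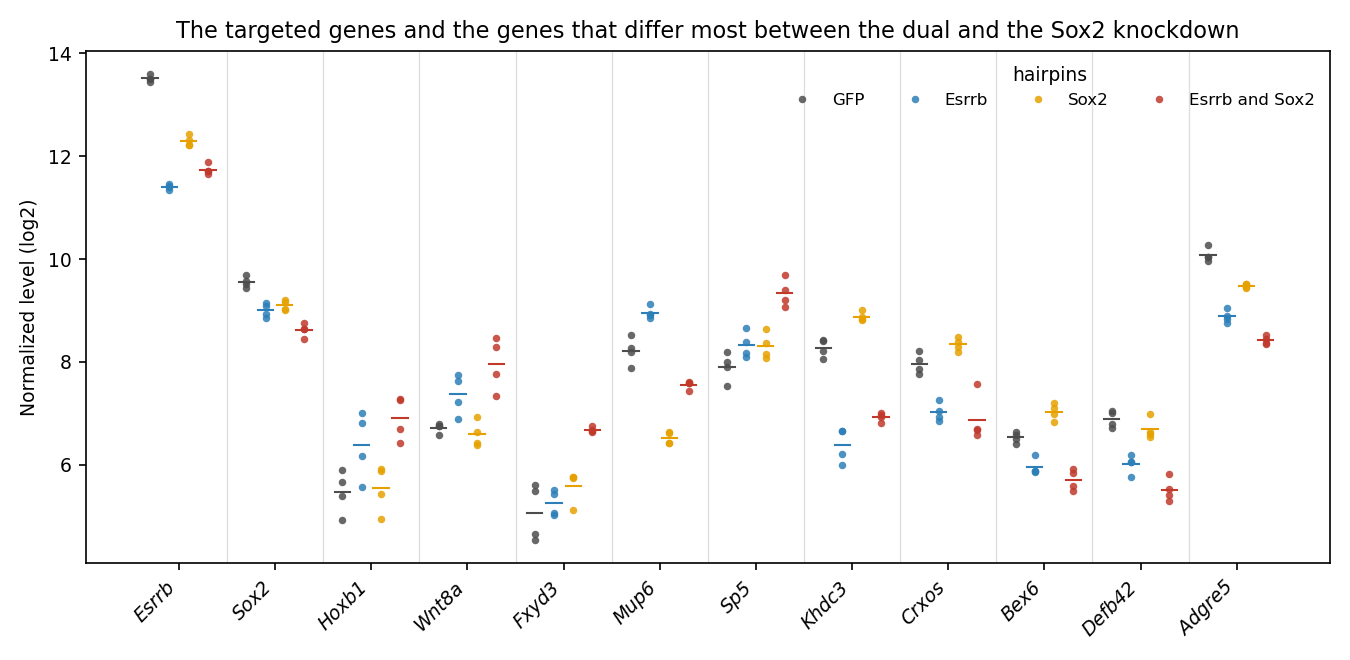
Normalized log2 level on the 4 arrays of each group (grey GFP, blue Esrrb, yellow Sox2, red both hairpins) for the targeted genes and the 10 genes chosen for their difference between the dual and the Sox2 knockdown, with lines at group means. Sox2 transcript is lowest with both hairpins, Fxyd3 is highest in the dual knockdown, and Mup6 is highest with the Esrrb hairpin.

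Among the largest changes against GFP, some were also higher in the dual than in the Sox2 knockdown. Gbp2b was higher by 0.86 and Gbp2 by 0.77 (adjusted p = 9e-05 and 3.8e-05), Car4 by 0.63 (adjusted p = 0.0089) and Rhox6 by 0.37 (adjusted p = 0.046). Cxcl10, Krt18, Krt8, Plac1 and Zfp36l3 differed from the Sox2 knockdown by 0.51, 0.12, 0.21, 0.34 and 0.28 without passing (adjusted p = 0.056, 0.53, 0.23, 0.19 and 0.22). On the falling side Eras was lower by 0.70 (adjusted p = 0.0034), while Tcl1, Manba and Notch4 differed by 0.00, -0.05 and -0.10 and did not pass (adjusted p = 0.99, 0.81 and 0.63). Sox2 transcript was lower in the dual knockdown than with its own hairpin alone (log2 -0.48, adjusted p = 0.0029), and Esrrb transcript was higher than with its own hairpin alone (log2 0.34, adjusted p = 8.8e-04). The unequal knockdown of the targets stands beside every direct comparison, and its part in them was not tested.

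The 2 sets of arrays were used to see how far the contrast repeats between arrays. All arrays were normalized together, and the labels do not say whether they hold separate transfections. The agreement may therefore be technical in part or in whole. The A and B arrays share no array with the C and D arrays, and each set holds 2 dual and 2 control arrays. Of 388 members past 1 on the log2 scale in the A and B arrays, 359 had the same sign and a difference past 0.5 in the C and D arrays. Across members the 2 sets' differences correlated at r = 0.85, given as a description over genes, which are not independent. The placental list had medians of 1.07 and 1.01 in the sets, the keratin list 1.45 and 1.26, the naive list -1.30 and -1.21, and the DNA replication list -0.28 and -0.32.

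**Figure D5:**
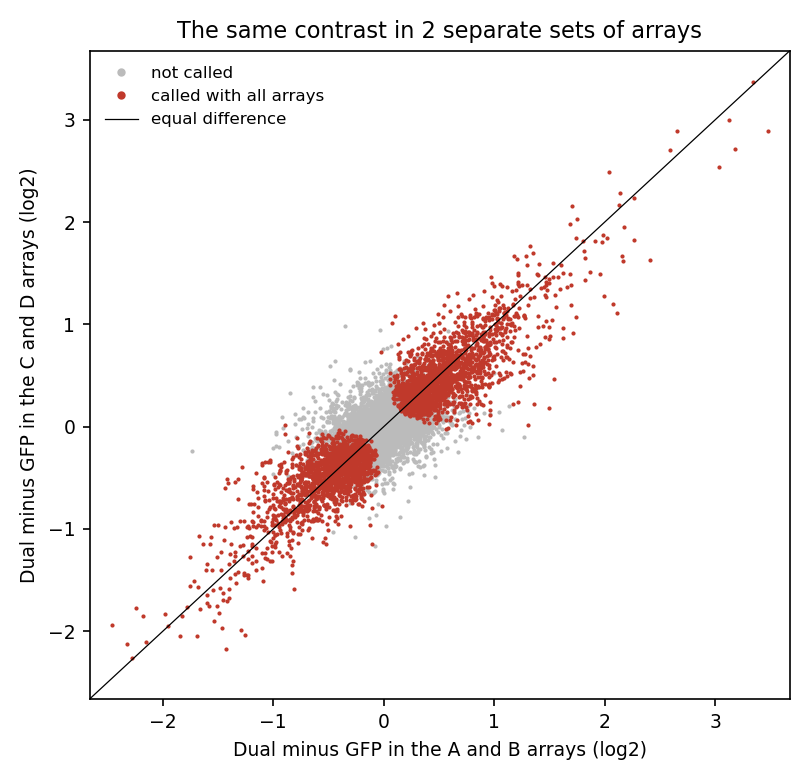
Log2 difference (dual minus GFP) of each of the 8014 genes from the A and B arrays on the horizontal axis and from the C and D arrays on the vertical axis, with the line of equal differences. Red points are the 3642 genes called with all 8 arrays, a choice that uses both axes. Of the 388 genes past 1 on the horizontal axis in either direction, 359 lie past 0.5 with the same sign on the vertical axis.

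Some named calls were lost when 1 array was left out, in most of these genes whichever of several arrays it was. The proteasome subunit gene Psmd1 was not called without any 1 of the GFP arrays or without dual array B or C. Psmb5, of the same list, was lost without GFP array A, C or D or dual array A, B or D. Fbln2, Med13l and Rpl36al also lost their calls in this way. The call of Cited1, a transcriptional coregulator of placenta (log2 0.86), ended without GFP array C or D or dual array B (adjusted p = 0.0707, 0.0599 and 0.0665). That of Dazl, a germ cell RNA-binding protein (-0.52), ended without GFP array B or C or dual array A, B or C (adjusted p = 0.052 to 0.132). Pcna, the sliding clamp of DNA polymerase (-0.63), was not called without GFP array B or dual array B (adjusted p = 0.0523 and 0.0502), nor Pttg1, securin (-0.39), without GFP array B or dual array C (adjusted p = 0.0625 and 0.0573). The fatty acid desaturase gene Scd1 (-0.45) was lost without GFP array A or B or dual array D (adjusted p = 0.0801, 0.0611 and 0.0801), and the vitamin D receptor gene Vdr (0.47) without GFP array C or D or dual array B or C (adjusted p = 0.0687 to 0.0911). Stmn4 (0.64), which encodes a stathmin, was lost without GFP array A, C or D or dual array A or B (adjusted p = 0.0658 to 0.133), and Limd2 (0.42) without GFP array C or D or dual array B (adjusted p = 0.0626 to 0.0807). Stmn4 and Limd2 are 2 of the 6 genes detected in the dual knockdown alone, and a further one, the leukocyte integrin gene Itgb2, was not called. Rhox, guanylate-binding, major urinary protein, Tdpoz and class I MHC genes have near-identical relatives that a probe may also detect, which was not tested. By level, genes detected on all 8 arrays were put in 4 equal classes, and the share past 1.5-fold was 14.3% in the dimmest class and 9.67% in the brightest.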

How the data were processed

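Total RNA was measured on 16 Illumina arrays, 4 per group. The authors deposited non-normalized intensity values per probe and array, with a detection score that, from its values, is 1 minus the detection p-value, and a ratio per probe and group. How the deposited ratio was scaled, centred and averaged is not stated in the labels or headers. Its median was 0.776 (GFP), 0.805 (Esrrb), 0.818 (Sox2) and 0.822 (dual), and across the 8014 members the log2 of its dual over GFP quotient correlated with the differences computed here at r = 0.977, while 45 of the 200 named genes moved by more than the spread between arrays.

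Intensities were background corrected from the detection scores, offset by 16 and quantile normalized over all 16 arrays (neqc, limma 3.58.1, R 4.3.3). Of 25697 probes 23978 had 1 gene symbol, and 1 probe, the brightest that met the detection rule, stood for a gene. Group means of all 4 groups were fitted with lmFit and eBayes, and p-values were adjusted over 8248 genes. The fit was tested on simulated data. Members, lists and named genes were chosen with earlier results of these data known. Named were the targets, the 12 largest non-overlapping changes each way, up to 6 genes detected in 1 group alone each way, the 5 largest each way against each single knockdown, and up to 3 called genes of each list. Promoters came from RefSeq.

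Whether array letters pair samples was checked by correlating deviations from group means. For the same letter in dual and GFP this gave 0.16, 0.22, 0.14 and 0.25 for A to D, which meets the rule for pairing. Different letters of the same set correlated at least as strongly (0.27 and 0.29 between A and B, 0.45 and 0.30 between C and D), so the correlation follows the 2 array sets and not the letter. The fits with the letter as a replicate block and with the set as a block are alternatives. Other alternatives changed normalization, background, probe filter and arrays used. The number of arrays limits the precision.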

Additional observations from a re-analysis of the deposited data

Results flagged for a closer look

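In 28 of 400 sets of 4 arrays (a named gene in 1 group), 1 array stood apart by Dixon's test, which sets the gap to the nearest array against the whole range. Chance singles out about 1 in 20 such sets. The values below are normalized log2 levels of the array that stood apart, and no cause was tested. Of the 28 cases 10 were in dual array B. Below the other 3 dual arrays in array B were Gbp2 at 11.47, Nanog at 10.57, S100a11 at 13.90, Phc1 at 11.35, H2ax at 10.14, Cox7a1 at 10.56 and Rhob at 9.10. Above the others in dual array B were Prss8 at 8.99, Crxos at 7.57 and Smarca2 at 9.08.

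In dual array A, Spry4 stood high at 6.41, Socs2 at 9.001 and Hdac2 at 11.56, and Gadd45a stood low at 10.20. In dual array C, Klf4 was high at 8.26, Col4a2 at 11.26 and Slc38a4 at 8.20, while Mup6 was low at 7.43 and Eif2ak2 at 8.32. Among control arrays, Olfml3 was high at 5.42 and Rpl36al low at 14.53 in array A, and Prss8 was high at 6.89 in array B. Fzd2 was high at 6.80 and Eif4ebp1 low at 12.24 in GFP array C. In GFP array D, Fgf4 was high at 7.46 and Anxa1 at 5.56, and Rbl1 was low at 6.08 and Smc1b at 6.54.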

How the results depend on the processing

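The knockdown of Esrrb stayed between -1.98 and -1.74 and that of Sox2 between -1.07 and -0.85 under all alternatives run. Of the 3642 genes called against GFP, 21 had the opposite sign without normalization, 9 with the mean of a gene's probes, 1 with the A and B arrays alone and 3 with the C and D arrays alone. Median scaling in place of quantile normalization called 1835 genes against GFP, among them 1809 of the 3642. Against Esrrb it called 1278 in all and against Sox2 42 (40.5% of these higher, against 50.9%). Without normalization 3928 genes were called against GFP, 1179 higher and 2749 lower, as the median of all genes moved to -0.14. Scaling to the members' median, chosen after seeing the data, gave 3749, 45.1% higher. The A and B arrays alone gave 1983 genes against Esrrb and 92 against Sox2, and the C and D arrays alone 103 against Sox2. Against Sox2 the count was 316 without a probe filter, 294 with the 8 arrays alone and 793 where the set of arrays was a block. With the array letter as a replicate block 4078 genes were called against GFP, 3681 against Esrrb and 710 against Sox2, and no named call changed. Leaving out 1 array gave 3301 to 3526, 2858 to 3068 and 324 to 504 genes, the lowest against Sox2 without Sox2 array B. Of the 200 named genes 23 lost their call under median scaling, 20 with the C and D arrays alone and 16 with the A and B arrays alone; the cause was not tested. Under the authors' deposited ratio 45 of the 200 named genes moved by more than the spread between arrays. Of the 61 list medians 54 moved by more than that spread without normalization, 18 with the A and B arrays alone, 13 with the C and D arrays alone and 14 under median scaling. The median of the BAF and NuRD list changed sign under 3 scalings, and without normalization those of the Myc and cyclin, glycolysis, nuclear receptor, fibroblast, solute carrier and kinesin lists did too. Dim genes, near the lowest detected log2 levels of 5.21 to 5.73, are limited by background.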
